A study of Mus musculus with 20 samples.

Results

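The respiratory chain genes described here are the protein-coding genes for the structural subunits of complexes I to V and for cytochrome c, chosen by symbol. They were the genes whose symbols begin with Ndufa, Ndufb, Ndufc, Ndufs, Ndufv, Uqcr, Cox4 to Cox8 or Atp5, with Sdha to Sdhd, Cyc1, Cycs and the protein-coding genes of the mitochondrial genome, and the Ndufaf assembly factors were left out. The rule gave 100 genes among 51826 rows of the count table, 87 encoded in the nucleus and 13 in the mitochondrion. Complex I held 43 members, complex II 4, complex III 10, complex IV 23 and complex V 19, with Cycs as the remaining gene. RNA had been sequenced from 6 primary mouse sarcomas and 14 lung metastases, each metastasis matched by its label with a primary tumour. A primary tumour with its metastases forms a set: there were 4 metastases in set 1 and in set 2, 2 in set 3 and in set 6, and 1 in set 4 and in set 5. Primary tumours are written P1 to P6 and metastases by set and number, so that M2-3 is metastasis 3 of set 2 and M5-x the unnumbered one of set 5. All animals carry the same genotype label, a mixed background, and the labels name no driver allele, age, sex, tumour site or animal. Metastases of a set may therefore share a host, and the p-values speak of the variation among these samples, which may be technical in part. The source is given as mouse tumour tissue, and the summed level of 16 lung epithelial markers ran from 4.22 to 86.0 counts scaled to a common library total (CPM) in primary tumours and from 27.6 to 14687 in metastases, with metastases far apart from each other. In whole tissue, fewer cells of a type and less RNA per cell cannot be told apart.

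The respiratory chain passes electrons from NADH through complex I, or from succinate through complex II, by way of ubiquinone, complex III and cytochrome c to oxygen at complex IV, and complex V uses the resulting proton gradient to make ATP. Complexes I, III, IV and V are built from subunits of both genomes, whereas complex II and cytochrome c are wholly nuclear. Mitochondrial transcripts are cut out of long transcripts of each strand, with mt-Nd6 the single protein gene on the light strand. Several complex IV subunits exist as tissue forms, such as the heart and skeletal muscle forms Cox6a2, Cox7a1 and Cox8b, and Cox4i2 and Ndufa4l2 are known as forms that rise under low oxygen.

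Of the 13 mitochondrial genes, 7 gave counts that could be compared, namely mt-Nd1, mt-Nd2, mt-Nd4, mt-Nd5, mt-Nd6, mt-Cytb and mt-Co1. The other 6 lie next to each other between mt-Co1 and mt-Nd4 and were at or near 0 in every library. Over all 20 libraries, mt-Co3 had 34 counts in total, mt-Co2 had 8 and mt-Atp6 had 1, while mt-Atp8, mt-Nd3 and mt-Nd4l were listed at 0. Their neighbours had 1625964 counts (mt-Co1) and 217285 counts (mt-Nd4). A count of 0 in a library allows up to 3 counts, or 0.0815 to 0.146 CPM at these depths, for counting error only. Most of these genes have near-identical copies in the nuclear genome, and the stretches of 50 bases of each mitochondrial gene were looked up in all other annotated transcripts. All stretches of mt-Co2, 99.9% of those of mt-Co3, 99.5% of mt-Atp6, 98.8% of mt-Nd4l and 98.0% of mt-Nd3 were found in another gene, against 62.2% for mt-Nd4, 51.1% for mt-Co1, 8.19% for mt-Nd2, 7.61% for mt-Nd5 and 0% for mt-Nd1, mt-Nd6, mt-Cytb and mt-Atp8. Among the genes near 0, mt-Atp8 was thus the one with no stretch shared with an annotated transcript. Genome sequence outside annotated transcripts was not searched. The copies are unprocessed pseudogenes on chromosome 1, annotated one after the other in the reverse orientation. The copy of mt-Atp6 ends at 24614651 and that of mt-Co2 starts at 24614885. In the mitochondrial genome mt-Atp8 lies between these genes, and whether the bases between the copies match it was not tested. The copy of mt-Co2, Gm28661, matched the gene at 681 of 681 aligned bases and had 31 counts over the 20 libraries. A stretch of each is shown because the letters do not differ, first at chrM:7043-7132 (plus strand) and then at chr1:24615446-24615535 (minus strand), in mm10 from GENCODE transcripts.
mt-Co2: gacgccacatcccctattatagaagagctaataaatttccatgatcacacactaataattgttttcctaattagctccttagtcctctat
Gm28661: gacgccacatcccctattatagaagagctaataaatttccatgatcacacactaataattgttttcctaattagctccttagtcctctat
The stretches are the same letter for letter, so a read from within them cannot be given to either gene. Whether the low counts of the 6 genes come from how such reads were counted was not tested, since the setting for reads with several matches is not given in the sources used here. As a consequence of these counts, complex V had no mitochondrial member that could be compared and complex IV had mt-Co1 alone.

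**Figure D1:**
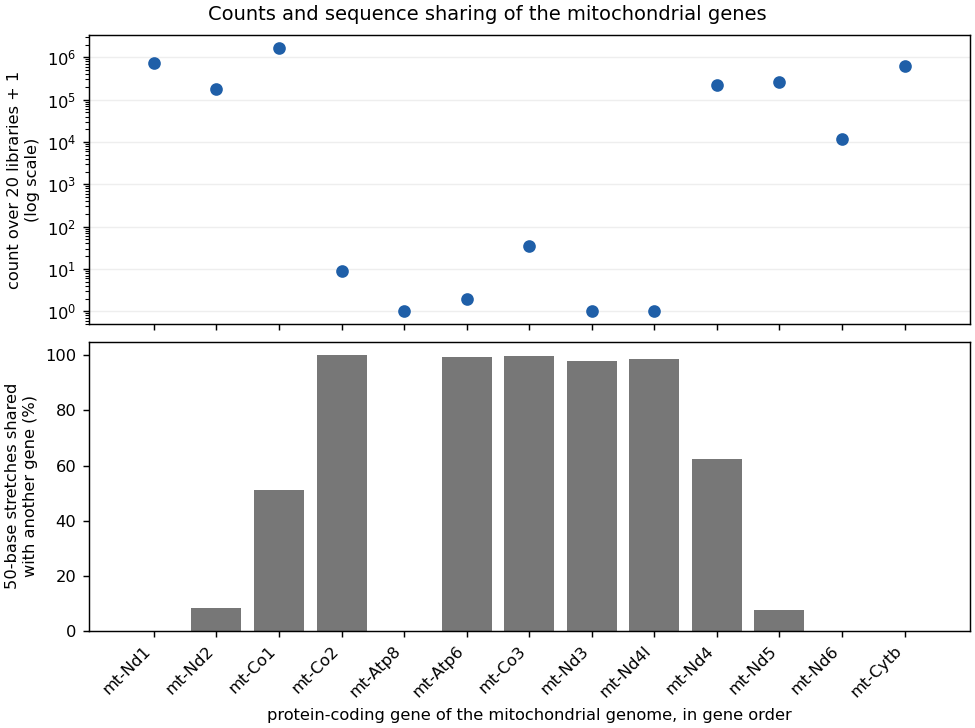
Upper panel, the count of each mitochondrial protein gene summed over 20 libraries, plus 1, on a log scale. Lower panel, the percentage of its 50-base stretches also found in another annotated gene. The 6 genes between mt-Co1 and mt-Nd4 have at most 34 counts, and 5 of them share 98.0% or more of their stretches.

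Among nuclear members, the highest levels per kilobase of exon were those of Atp5b (518 CPM per kb), the catalytic beta subunit of ATP synthase, Cox4i1 (432), the regulatory subunit IV of cytochrome c oxidase, and Atp5a1 (314), the alpha subunit of ATP synthase. Mitochondrial mt-Co1 (1845 CPM per kb), mt-Nd1 (1369) and mt-Cytb (933) stood above all of them. Many nuclear members have processed pseudogenes, and 17 of the 87 shared at least 20% of their 50-base stretches with other genes. Atp5l, subunit g of ATP synthase, shared 84.8%, Atp5o 50.3% and Atp5h 47.9%, and levels of such genes are uncertain. The same holds for mt-Co1 and mt-Nd4, whose shared stretches are given above, and for sums and ratios that include them. The low levels of Cycs (2.80 CPM per kb, 28.5% shared) and Cox7c (3.14, 27.9%) are read with that limit. For low counts, 2 members were not tested, Cox7b2 and Cox8c, both known as testis forms, which left 85 nuclear members in the comparisons.

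By base composition 3 libraries stood apart, and the calls are given with and without them. In P4, M4-1 and M3-2, counts fell steeply with the GC content of the transcript. Over 9679 expressed protein-coding genes of the nuclear genome, the slope of the log2 deviation was -0.268, -0.217 and -0.153 per percentage point of GC in P4, M4-1 and M3-2. The other 17 libraries lay between -0.0434 (P6) and 0.0298. Nuclear members have transcripts with a median GC content of 51.5% and mitochondrial members of 37.1%, so the genomes differ in the property along which these libraries stood apart. Among the 29 nuclear members of highest GC content (54.4 to 63.3%), the median level in P4 was 0.0560 times the median of the other primary tumours, in M4-1 0.0995 times and in M3-2 0.135 times that of the other metastases. Among the 29 of lowest GC content (38.4 to 49.0%) the same ratios were 1.29, 1.52 and 1.05. P6 declined along the same axis to a smaller extent, with 25 of the 29 GC-rich members below the median of P1, P2, P3 and P5 and a median level of 0.703 times it. A stretch of coding sequence with G and C in capitals shows the contrast, from exon 2 of Uqcr11 (chr10:80404197-80404286, minus strand, a small subunit of complex III), from exon 3 of Uqcrb (chr13:66901479-66901568, minus strand, a subunit at the quinone end of the same complex) and from the start of mt-Nd1 (chrM:2751-2840, plus strand), all in mm10.
Uqcr11: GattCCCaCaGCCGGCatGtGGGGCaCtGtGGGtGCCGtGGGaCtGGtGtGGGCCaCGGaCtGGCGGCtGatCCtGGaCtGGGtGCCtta
Uqcrb: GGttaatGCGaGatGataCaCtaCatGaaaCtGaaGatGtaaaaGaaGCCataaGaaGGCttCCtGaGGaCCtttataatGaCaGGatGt
mt-Nd1: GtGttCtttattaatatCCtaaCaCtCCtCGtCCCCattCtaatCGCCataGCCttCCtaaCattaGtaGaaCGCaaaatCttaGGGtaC
G and C made up 66.7%, 38.9% and 40% of these stretches. Uqcr11 was at 0.458 CPM in P4 and at 24.8 to 71.5 CPM in the other 5 primary tumours, and at 2.05 CPM in M4-1 and 4.49 CPM in M3-2 against 50.5 to 82.8 CPM in the other metastases. Uqcrb moved the other way in P4, at 75.9 CPM against 21.7 to 30.4 CPM, and in M4-1, at 80.2 CPM against a median of 21.1 CPM in the 12 other metastases. The subunits of one complex thus lay far apart in these libraries although both are parts of complex III. An exception was Atp5g2, a form of the c-ring subunit of ATP synthase, whose transcript is the richest in GC (63.3%) and whose 4.07 CPM in P4 stood above the 0.740 to 3.05 CPM of the other primary tumours.

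**Figure D2:**
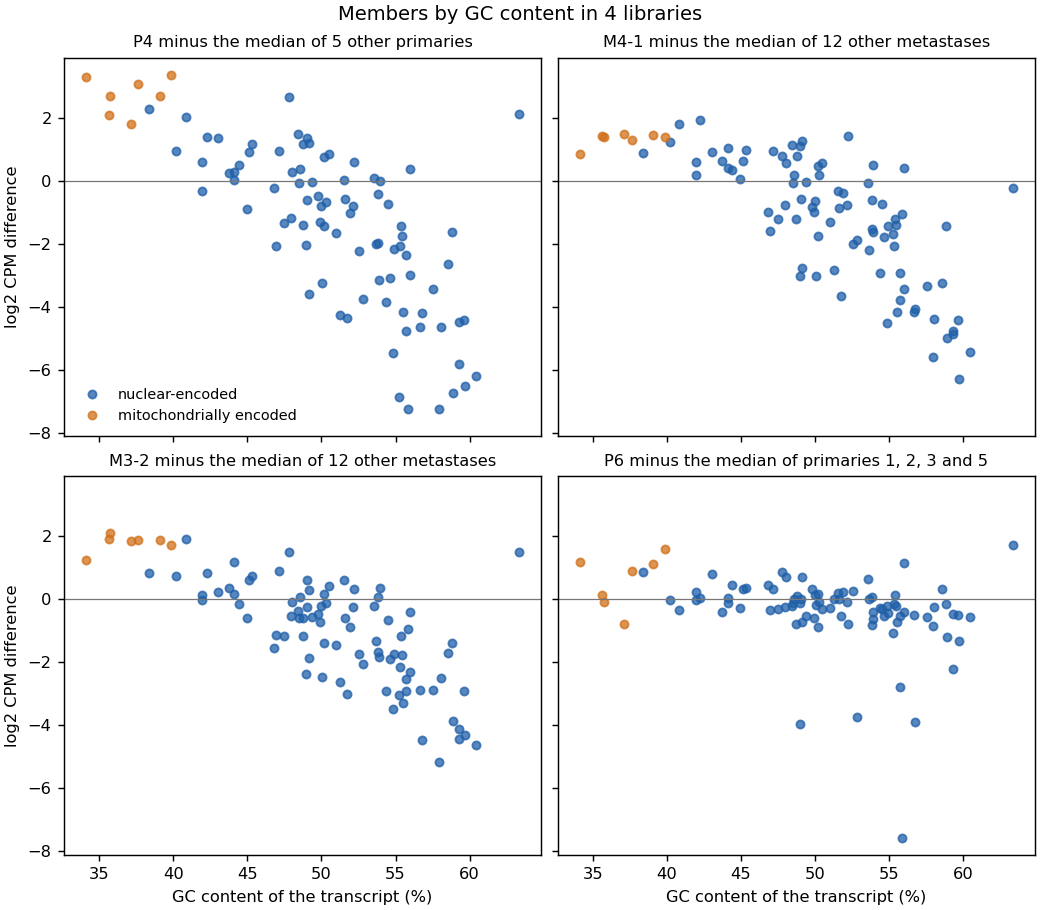
Each point is a tested member, with the GC content of its transcript on the x axis and, on the y axis, its log2 CPM in P4, M4-1, M3-2 or P6 minus the median of the libraries named in the panel title. Nuclear members fall with GC content in P4, M4-1 and M3-2, and mitochondrial members lie above 0 there, whereas P6 declines less, with medians of -0.01, -0.10 and -0.51 over the 29, 27 and 29 members of low, middle and high GC content and a few tissue forms far below.

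Counts of the mitochondrial members made up 0.245 to 0.752% of all counts in the 17 libraries without the steep slope, with a median of 0.426%, and 1.12% in M4-1, 1.71% in M3-2 and 1.75% in P4. Nuclear members made up 0.583 to 1.08% in the 17 libraries (median 0.800%) and 0.421 to 0.566% in the 3 others. The log2 ratio of mitochondrial to nuclear counts was lowest in P3 (-1.82), P1 (-1.49) and M2-3 (-1.33) and highest in P4 (2.06), M3-2 (1.59) and M4-1 (1.04). The next library was M3-1 at 0.37, whose GC slope was 0.0214 and whose ribosomal RNA of the mitochondrial genome took 12.2% of its counts, against 0.932 to 3.47% in the other libraries without the steep slope. The libraries were depleted of rRNA, and whether the depletion differed in M3-1 was not tested. After each library was corrected for its own dependence on GC content, the ratio was -0.52 in P4, 0.17 in M3-2 and -0.85 in M4-1. These lay within the range of the other libraries, and the ratio of P6 moved from -0.23 to -0.67. The correction was fitted on nuclear genes, whose GC content ran from 33.1 to 68.4% with a median of 49.5%. Mitochondrial members, at 31.9 to 41.1%, lie toward its low end, so their corrected values are less certain. For complex III alone, the corrected ratio was 1.14 in P4 and 1.46 in M3-2, still above the highest of the other 17 libraries (1.09), and 0.68 in M4-1. For complexes I and IV the corrected ratios of P4, M3-2 and M4-1 lay within the range of the others.

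**Figure D3:**
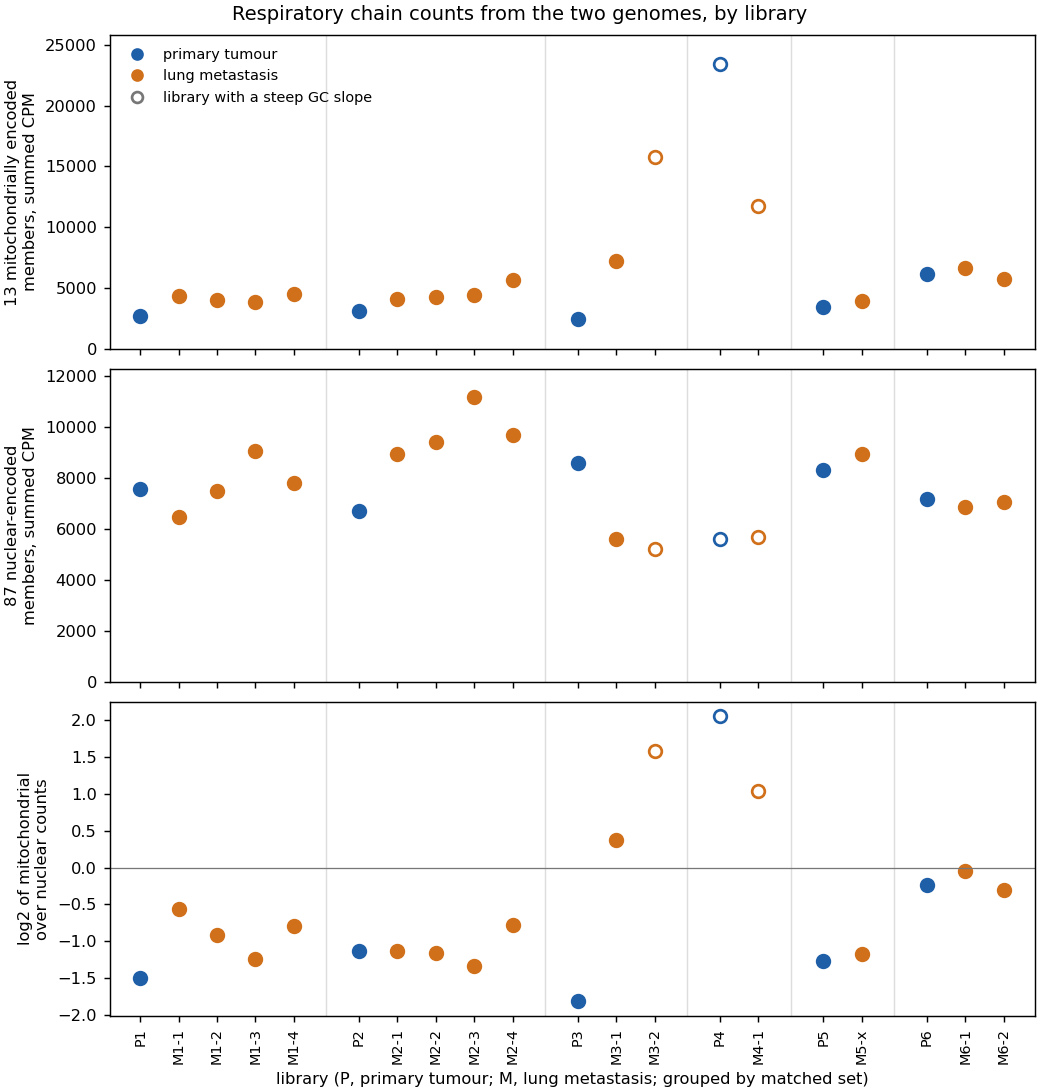
Summed CPM of the mitochondrial members, summed CPM of the nuclear members and the log2 ratio of their counts, for each of 20 libraries grouped by matched set. Open symbols mark P4, M4-1 and M3-2, which hold the 3 highest ratios (1.04 to 2.06), and M3-1 at 0.37 is next.

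Within matched sets, the metastases had a higher ratio of mitochondrial to nuclear counts than their primary tumour in 5 of 6 sets, but the sizes spread widely and 3 of the 5 were at or under 0.10. The differences in log2 were 0.61 in set 1, 0.03 in set 2, 2.80 in set 3, -1.01 in set 4, 0.10 in set 5 and 0.06 in set 6, with a mean of 0.43 ± 1.27 (SD, n = 6 sets). Set 3 was far above the rest and set 4 alone was negative. Without P4, M4-1 and M3-2, which removes set 4, the mean was 0.60 ± 0.92 (SD, n = 5), with set 3 at 2.19. After the correction for GC content it was 0.56 ± 0.82 (SD, n = 6), with 5 of 6 sets higher. Leaving out set 3 gave -0.04 for the uncorrected mean, 0.20 in the 17 libraries and 0.27 after the correction. When the log2 CPM of the tested members was averaged for each genome in place of summing counts, 3 sets were higher and 3 lower, with a mean of 0.39 ± 1.53 (SD, n = 6). By complex, the mean difference was 0.42 ± 1.33 for complex I, 0.40 ± 1.37 for complex III and 0.36 ± 1.37 for complex IV (SD, n = 6). In the 17 libraries these were 0.55 ± 1.04, 0.49 ± 0.97 and 0.59 ± 1.05 (SD, n = 5). All of these means are smaller than the spread between sets, and the complexes differ from each other by less than it. Set 6 went in opposite ways, with 0.70 for complex I and -0.66 for complex IV. After the correction for GC content these were 1.26 and -0.095. In P6 mt-Co1 took 54.2% of mitochondrial protein-coding counts and mt-Nd5 2.22%, against 36.8 to 42.6% and 7.10 to 11.2% in P1, P2, P3 and P5. P4 was near P6, with 49.3% and 3.07%, and the metastases ran from 37.4 to 50.4% for mt-Co1 and from 5.49 to 10.3% for mt-Nd5.

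Lung metastases were then compared with primary tumours gene by gene, with edgeR's quasi-likelihood test on the counts, the matched set as a block and Benjamini-Hochberg adjustment over all 18452 genes tested (adjusted p threshold 0.05). Of 85 nuclear members, 2 were higher in metastases, Ndufb9 and Ndufa6, and 2 were lower, Ndufab1 and Sdha. Over all genes tested, 7.34% were called higher and 6.44% lower, so the nuclear members were called at a smaller share than genes at large. Their median log2 difference was -0.02, beside 0.00 over all genes. In counts simulated at the spread of these libraries, the test recovered 0% of 50 genes changed 1.5-fold and 10% of 50 changed 2-fold. The simulation gave 74 calls among 18240 genes, 12.2% of them false, whereas the data gave 2543 calls among 18452 genes. With fewer calls the adjustment sets a stricter limit on p, so this recovery does not carry over to the data. The 4 members called had log2 differences of 0.65 (Ndufb9), 0.65 (Ndufa6), -0.75 (Ndufab1) and -0.47 (Sdha), all under 2-fold. How often changes of such sizes would be called among the members was not tested. None of the 7 mitochondrial members passed, with a median of 0.43 and 6 of 7 above 0. At an unadjusted p under 0.05 by edgeR, 2 nuclear members were higher and 8 lower, and 1 mitochondrial member was higher. DESeq2 called 3 nuclear members higher and 4 lower, and 1 mitochondrial member higher (mt-Nd5), where it called 12.5% of all genes higher and 10.1% lower. With limma voom, which called 15.8% of all genes in either direction, the counts were again 3, 4 and 1. In the 17 libraries, where the background was 9.28% higher and 7.63% lower, 2 nuclear members were higher (Ndufb9 and Ndufv1), 4 were lower (Ndufa3, Cox7a1, Ndufab1 and Sdha) and mt-Nd1 was higher. With the correction for GC content in all 20 libraries, where 11.2% of genes were called higher and 6.86% lower, Ndufb9, Ndufa6 and Ndufv1 were higher, Ndufab1 and Sdha were lower, and mt-Nd1, mt-Nd4 and mt-Nd5 were higher. Ndufb9, Ndufab1 and Sdha were thus called in all 3 of these fits. None of the 4 passed when each set gave a single metastasis value. With the metastases of a set summed, where 2.04% of all genes were called, Cox6a2 alone passed among the members. With metastasis 1 of each set, where 2.41% were called, no member passed. The calls depended on single sets and on the lung index: without set 1 only Ndufab1 passed among the members (5.45% of all genes called) and without set 2 only Sdha (5.94%). Without set 3 there were 10 nuclear members higher and 2 lower, where 8.93% of all genes were called higher and 7.65% lower. None of the 4 passed in a fit that includes the index of lung epithelium (7.58% of all genes called), in which Atp5a1, Atp5g3 and Ndufa4 were higher.

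In complex I, 36 nuclear members were tested, with a median log2 difference of 0.06, from -0.82 to 0.65, and 21 of 36 above 0. Ndufb9, an accessory subunit of the membrane arm (chr15:58933756-58939488, plus strand), had a lowest, median and highest level of 39.0, 106 and 115 CPM in primary tumours and of 81.5, 183 and 218 CPM in metastases. The metastases of sets 1, 2, 5 and 6 all lay above every primary tumour, while M3-1, M3-2 and M4-1 lay among the primaries. Its log2 difference was 0.65 ± 0.17 (SE; edgeR, adjusted p = 0.0171), and it was higher in 5 of 6 sets, with set 3 the exception at -0.32. It shares 23.4% of its 50-base stretches with other genes. Ndufa6, an accessory subunit of the LYR-motif family (chr15:82350140-82354322, minus strand), ran over 53.3, 62.3 and 93.4 CPM in primary tumours and 44.4, 110 and 151 CPM in metastases. It was higher by 0.65 ± 0.20 in log2 (SE; edgeR, adjusted p = 0.0433) and in 5 of 6 sets, and in the 17 libraries it did not pass (0.60 ± 0.22, adjusted p = 0.079 by edgeR). Ndufab1, the mitochondrial acyl carrier protein, which is also a subunit of complex I (chr7:122085403-122101886, minus strand), was at 13, 18.5 and 40.7 CPM in primary tumours and 7.79, 9.79 and 18.7 CPM in metastases. It fell by 0.75 ± 0.17 in log2 (SE; edgeR, adjusted p = 0.00862) and was lower in 6 of 6 sets. M3-2 and M4-1 lay among the primary tumours, and without the 3 libraries primary tumours lay at 13 to 20.03 CPM and metastases at 7.79 to 11.7 CPM.

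Ndufv1, the flavoprotein that takes electrons from NADH, shows how the libraries of steep slope act on a GC-rich gene (56.7%). It was at 4.02 CPM in P4, 8.59 CPM in M4-1 and 20.7 CPM in M3-2, against 74.7 to 133 CPM in the other primary tumours and 100 to 200 CPM in the other metastases. With all libraries its log2 difference was 0.49 ± 0.29 (SE; edgeR, adjusted p = 0.29), and in the 17 libraries it rose by 0.63 ± 0.17 (adjusted p = 0.0228). Ndufa3, an accessory subunit, was at 43.6 to 71.1 CPM in the 5 other primary tumours and 16.8 to 53.6 CPM in the 12 other metastases, and fell by 0.83 ± 0.25 in the 17 libraries (SE; edgeR, adjusted p = 0.0393). Ndufv1 and Ndufa3 fall outside the rule for named genes and were chosen after their values were seen.

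Complex II, which lies in both the respiratory chain and the tricarboxylic acid cycle, had all 4 members below 0 in log2 with the 20 libraries (median -0.12). Sdha, the flavoprotein that oxidises succinate (chr13:74322254-74350280, minus strand), was at 212, 237 and 257 CPM in primary tumours and 125, 183 and 216 CPM in metastases. M2-1, M2-2 and M5-x reached the level of P2, and all others lay below every primary tumour. Sdha fell by 0.47 ± 0.12 in log2 (SE; edgeR, adjusted p = 0.0179) and was lower in 6 of 6 sets. Its partner Sdhb, the iron-sulphur subunit, had a log2 difference of -0.13 ± 0.20 (SE; adjusted p = 0.721 by edgeR), and the membrane anchor Sdhc of -0.11 ± 0.16 (adjusted p = 0.68 by edgeR). Both stood low in P4, at 25.6 and 38.6 CPM against 87 to 137 and 63.1 to 128 CPM in the other primary tumours, whereas Sdha was at 231 CPM there, inside the range of the others.

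In complex III, 9 nuclear members gave a median of 0.11 and none passed by edgeR. Uqcrc2, a core subunit of the matrix side, was at 138 to 228 CPM in primary tumours and 70.5 to 170 CPM in metastases, with a log2 difference of -0.54 ± 0.18 (SE; edgeR, adjusted p = 0.052) just outside the threshold, and it was lower in 5 of 6 sets. It passed with DESeq2 (adjusted p = 0.0197) and, by edgeR, with another scaling (RLE size factors, adjusted p = 0.0481), with a scaling without the mitochondrial genome (adjusted p = 0.0360) and with the muscle index as a covariate (adjusted p = 0.00396). In the 17 libraries it did not (edgeR, adjusted p = 0.062). Uqcrh, the hinge subunit, had 0.23 ± 0.15 (edgeR, adjusted p = 0.36) and Uqcrb -0.29 ± 0.20 (edgeR, adjusted p = 0.37). Cyc1, the subunit that carries cytochrome c1, was at 3.72 CPM in P4, 9.24 CPM in M4-1 and 22.3 CPM in M3-2 and at 72.2 to 113 CPM and 77.8 to 197 CPM in the other primary tumours and metastases. Cytochrome c itself, Cycs, stood at 35.5 CPM in P4 and 6.73 to 8.97 CPM in the other primary tumours, and at 17.7 CPM in M3-2 and 16.4 CPM in M4-1 against 3.49 to 9.004 CPM elsewhere. Its log2 difference between groups was -0.48 ± 0.32 (SE; edgeR, adjusted p = 0.35).

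In complex V, 17 nuclear members gave a median of -0.14, 6 of them above 0, and none passed by edgeR. Atp5b was at 730, 1039 and 1282 CPM in primary tumours and 530, 902 and 1852 CPM in metastases, and Atp5a1 at 433, 699 and 885 CPM and 559, 921 and 1696 CPM. These subunits form the catalytic head together, and their log2 differences were -0.21 ± 0.18 and 0.33 ± 0.17 (SE; edgeR, adjusted p = 0.49 and 0.23). Both were highest in M2-3, a metastasis with a skeletal muscle index of 5.87 (the mean log2 CPM of 20 muscle markers). P1, P2, P3 and P5 had a higher index, from 7.58 to 8.39, and lower levels of both genes. M2-3 also had the highest sums of cardiac and pulmonary vein muscle markers (934 CPM) and of brown fat markers (65.4 CPM). Atp5g1, a form of the c-ring subunit, had 7.26 to 12.4 CPM in primary tumours and 2.64 to 11.4 CPM in metastases (log2 -0.73 ± 0.26 SE; edgeR, adjusted p = 0.072). It was lower with DESeq2 (log2 -0.72, adjusted p = 0.0196) and, by edgeR, with the muscle index as a covariate (-1.04, adjusted p = 0.0115) and without set 5 (-0.90, adjusted p = 0.0374), and in the 17 libraries it was at -0.59 (adjusted p = 0.15). Atp5j2, subunit f, was at 9.72 CPM in P4 against 80.3 to 133 CPM in the other primary tumours.

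Among the mitochondrial genes, mt-Nd1, a core subunit of the membrane arm of complex I, was at 530, 640 and 5023 CPM in primary tumours and 681, 1023 and 3372 CPM in metastases. The value of 5023 CPM was that of P4, and the other primary tumours lay at 530 to 1059 CPM. Its log2 difference was 0.53 ± 0.32 with 20 libraries (SE; edgeR, adjusted p = 0.30), 0.69 ± 0.19 with 17 (adjusted p = 0.0264) and 0.76 with the correction for GC content (adjusted p = 0.0311). It was higher in metastases in 5 of 6 sets. mt-Nd5, another pump subunit of complex I, had 0.82 ± 0.32 (SE; edgeR, adjusted p = 0.105), mt-Nd4 0.43 ± 0.29 (adjusted p = 0.35), mt-Nd2 0.27 ± 0.35 (adjusted p = 0.66), mt-Co1, the catalytic subunit of complex IV, 0.50 ± 0.34 (adjusted p = 0.36), and mt-Cytb, which holds the quinone sites of complex III, 0.36 ± 0.33 (adjusted p = 0.50). Of these, mt-Nd5 and mt-Nd4 passed with the correction for GC content, at 1.07 (edgeR, adjusted p = 0.0338) and 0.67 (adjusted p = 0.0471). The direction of mt-Nd1, mt-Nd2, mt-Co1 and mt-Cytb rested on the matched sets, since all 4 turned negative in a fit with no replicate block.

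The light-strand gene mt-Nd6 went the other way in most sets. Its levels were 5.98, 17.7 and 154 CPM in primary tumours and 5.59, 12.1 and 39.6 CPM in metastases, and it was lower in metastases in 5 of 6 sets, with set 3 the exception at 2.43 in log2. The fitted log2 difference was -0.62 ± 0.43 (SE; edgeR, adjusted p = 0.36), and without set 3 it passed at -1.03 (edgeR, adjusted p = 0.0404). In the 17 libraries it was -0.30 ± 0.39 (SE; edgeR, adjusted p = 0.63) and with the correction for GC content -0.34 ± 0.42 (adjusted p = 0.62). As a share of mitochondrial protein-coding counts, mt-Nd6 took 0.242 to 0.659% in primary tumours (median 0.499%) and 0.137 to 0.545% in metastases (median 0.216%). The kit marks strand but the strand setting of the counting is not given in the sources used here. Whether reads of the opposite strand entered the count of mt-Nd6 therefore cannot be told. At its end mt-Nd6 also overlaps mt-Nd5 on the other strand.

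**Figure D4:**
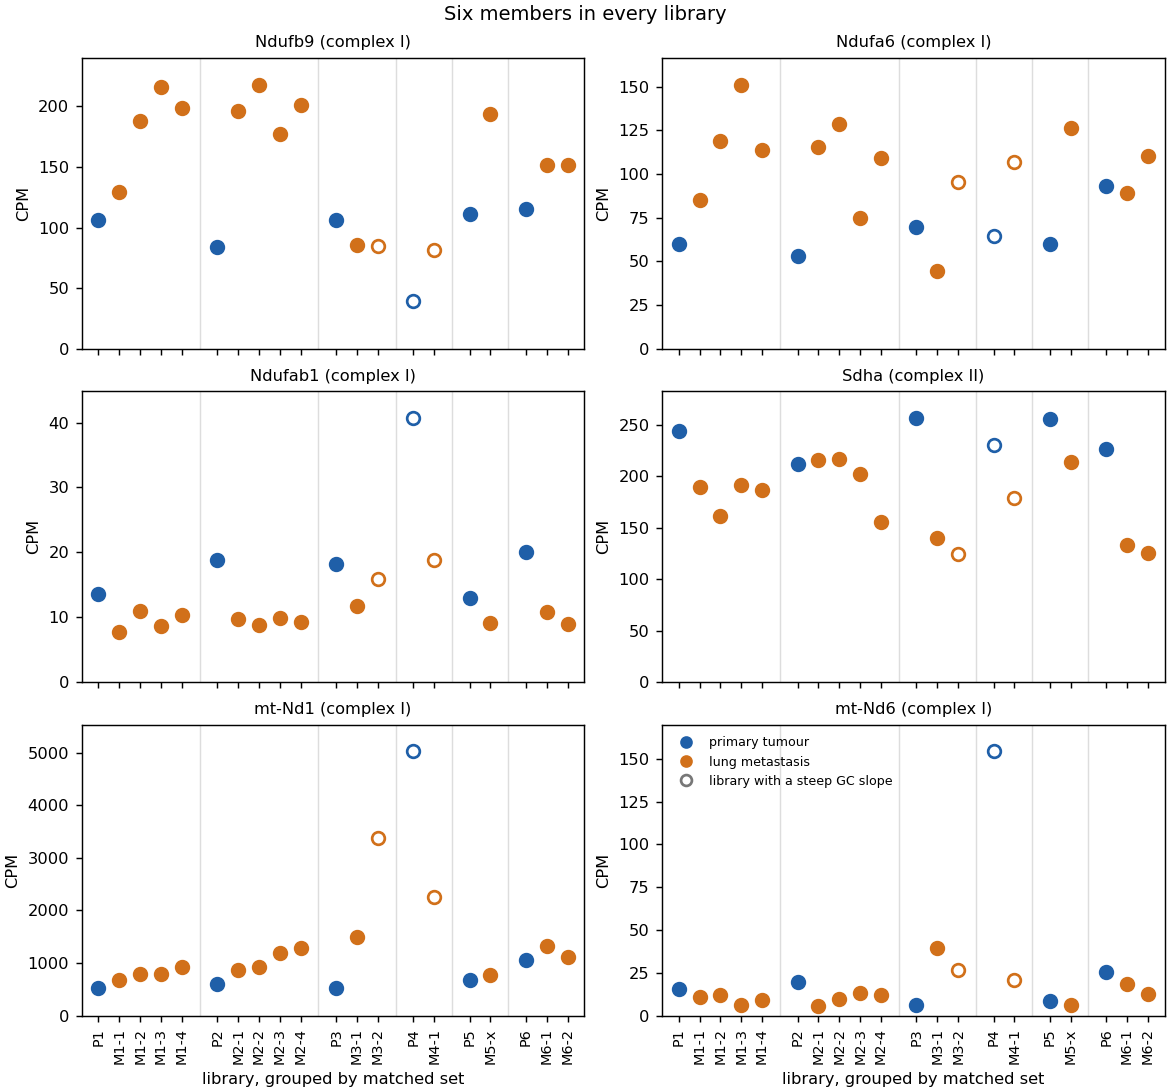
CPM of 6 members in each of 20 libraries, grouped by matched set; open symbols mark P4, M4-1 and M3-2. Ndufb9 and Ndufa6 lie higher in the metastases of 5 of 6 sets, Ndufab1 and Sdha lower in all 6, mt-Nd1 higher in 5 and mt-Nd6 lower in 5.

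Complex IV held the widest differences, and these lay in the tissue forms. Of its 18 tested nuclear members none passed by edgeR with all libraries, and the log2 differences ran from -2.55 (Cox6a2) to 1.82 (Cox4i2), with a median of -0.04. Cox4i1, the widely expressed form of subunit IV, was at 248 to 372 CPM in the 5 other primary tumours and 282 to 639 CPM in the 12 other metastases, and at 11.2 CPM in P4, 18.0 CPM in M4-1 and 67.0 CPM in M3-2. The 6 libraries with the highest skeletal muscle index were also the 6 with the most Cox6a2 and Cox8b. Cox6a2 was at 5.84, 11.3, 8.41 and 25.0 CPM in P1, P2, P3 and P5, whose muscle index lay between 7.58 and 8.39, and at 0.560 and 0.670 CPM in P4 and P6, whose index was -0.88 and -2.38. Among metastases it was highest in M2-3 (10.5 CPM), M3-1 (3.56 CPM) and M1-1 (3.15 CPM) and at or under 0.790 CPM in the other 11. M2-3 and M3-1 had the highest muscle index among metastases (5.87 and 5.38), while M1-1 had an index of 1.20 and, with M3-1, the highest index of cardiac and pulmonary vein muscle (4.43 and 4.52). M2-1 had the next highest muscle index (4.34) and 0.682 CPM of Cox6a2, near P6. In set 6 the index was higher in metastases by 4.15 while Cox6a2 was lower by 2.08 in log2. Its log2 difference of -2.55 ± 0.88 did not pass (SE; edgeR, adjusted p = 0.064) and was negative in 6 of 6 sets. It passed with limma voom (-3.58, adjusted p = 0.00359) and with the metastases of a set summed (-2.69; edgeR, adjusted p = 0.0429). Cox8b had -2.35 ± 1.11 (SE; edgeR, adjusted p = 0.17), with 0 counts in P4 and P6 and 16.4 CPM in P3, and passed with limma voom (-3.40, adjusted p = 0.0373). As a share of the Cox8a and Cox8b counts together it ran from 9.29 to 32.2% in P1, P2, P3 and P5, was 10.4% in M2-3 and 9.45% in M3-1, and lay at or under 3.17% in the other 12 metastases. Cox7a1 fell by 1.07 ± 0.27 in the 17 libraries (SE; edgeR, adjusted p = 0.017) and was at -0.93 with all 20 (adjusted p = 0.32). The 20 skeletal muscle markers summed to 16.2 to 13013 CPM in primary tumours and 63.6 to 4660 CPM in metastases, and 13 of 20 fell. When the muscle index entered the fit, where 27.7% of all genes were called, the difference of Cox8b turned to 2.48. In that fit Ndufb9, Ndufab1 and Sdha kept their calls, Ndufa6 lost its call (0.32; edgeR, adjusted p = 0.24), and Uqcrc2, Atp5g1 and Ndufs4 were lower. Other tissue markers moved too: 13 of 16 lung epithelial, 6 of 6 erythroid, 4 of 10 cardiac and 2 of 9 macrophage markers rose, and 4 of 9 T and NK cell, 2 of 7 proliferation and 1 of 4 tested brown fat markers fell. Without P4, M4-1 and M3-2, 10 of 16 lung epithelial and 3 of 10 cardiac markers rose, 3 of 7 proliferation markers fell, and the other lists gave the same numbers of calls. P4 and P6 also differed from P1, P2, P3 and P5 in other tissues. Macrophage markers summed to 8.80 and 29.1 CPM in P4 and P6, against 3285 to 5653 CPM in the others. Endothelial markers summed to 1.83 and 2.35 CPM, against 196 to 483 CPM. Without sets 4 and 6, Ndufb9, Ndufa6, Ndufab1 and Sdha did not pass by edgeR, where 9.84% of all genes were called. The part of these tissues in the members' differences was not tested beyond the covariates named.

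The forms known to rise under low oxygen had another pattern. Cox4i2 was at 0 to 2.74 CPM in primary tumours (median 0.938) and 0.145 to 18.5 CPM in metastases (median 4.52), and was higher in 5 of 6 sets without passing the threshold (log2 1.82 ± 0.88 SE; edgeR, adjusted p = 0.18). DESeq2 called it higher (log2 1.89, adjusted p = 0.0228), as did limma voom (2.14, adjusted p = 0.0499). Ndufa4l2 was paired here with Ndufa4 and placed with it in complex IV by its symbol. It reached 80.7 CPM in M1-2, 25.4 CPM in M1-4 and 18.5 CPM in M1-3, and was at or under 5.95 CPM in all primary tumours. It took 55.4% of the Ndufa4 and Ndufa4l2 counts in M1-2, 23.0% in M1-4, 17.2% in M1-3 and at most 11.7% in any other library. In set 2 it was 11.6 and 11.7% in M2-1 and M2-2 and 0.581 and 0.516% in M2-3 and M2-4, so metastases of one set differed. M2-1 and M2-2 also had a lung epithelium index of 5.93 and 6.09, and M2-3 and M2-4 of 0.39 and -0.77. Other sets did not follow this order. In set 1 the index was highest in M1-1 (8.05), which had the lowest share (8.04%). It was 4.69, 3.82 and 3.44 in M1-2, M1-4 and M1-3. M6-1 and M6-2, with an index of 4.18 and 4.19, had shares of 0.856 and 0.918%. Over the groups its log2 difference was 1.16 ± 0.80 (SE; edgeR, adjusted p = 0.36), and in a fit that includes the index of lung epithelium it was -1.15. Cox7b2, a form of subunit VIIb, had 2.70 CPM in P4, 0 in the other 5 primary tumours and at most 0.0362 CPM in metastases, so its presence rests on a single library. Cox6b2 stayed at or under 1.40 CPM in every library.

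**Figure D5:**
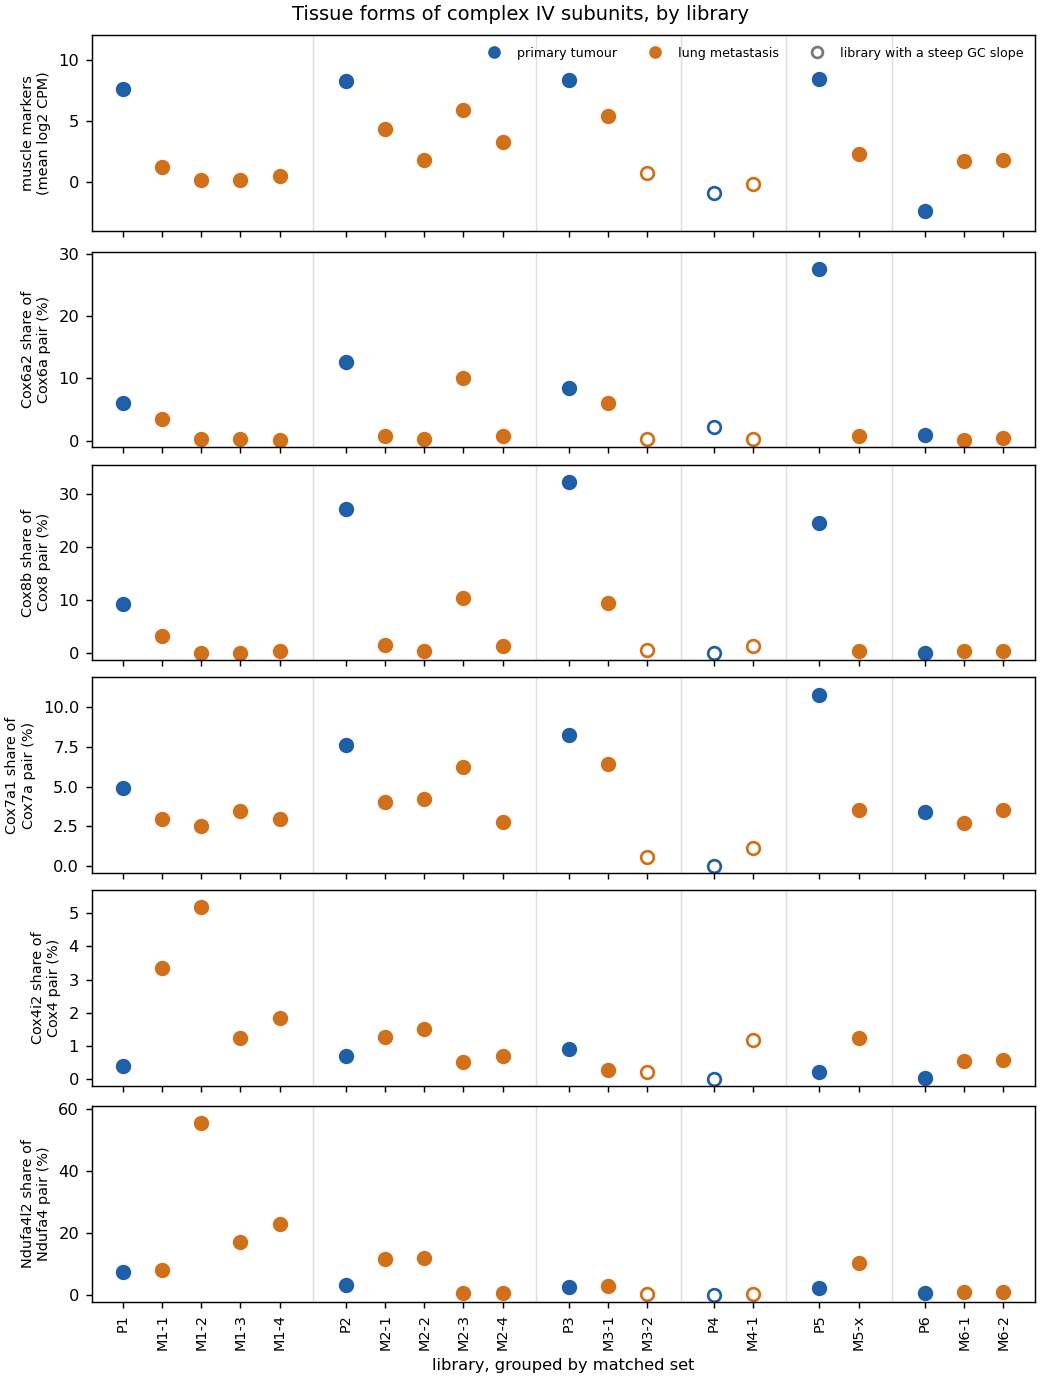
Top panel, the mean log2 CPM of 20 skeletal muscle markers; other panels, the share of the named tissue form in the counts of its pair, for 20 libraries grouped by matched set. Cox6a2, Cox8b and Cox7a1 are highest in P1, P2, P3, P5, M2-3 and M3-1, where muscle markers are high, and Ndufa4l2 peaks at 55.4% in M1-2.

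Among the 12 metastases of sets 1, 2, 3 and 6, 2 members differed between sets by edgeR, where 0.321% of 19919 genes were called. Cox6b1, subunit VIb of complex IV, was at 132 to 169 CPM in set 1, 141 to 203 CPM in set 2, 66.7 and 56.9 CPM in set 3 and 82.1 and 75.4 CPM in set 6 (adjusted p = 0.0456 by edgeR). Atp5k, subunit e of complex V, was at 68.0 to 97.8 CPM, 82.0 to 106 CPM, 30.6 and 23.4 CPM, and 57.0 and 52.5 CPM in those sets (adjusted p = 0.0475 by edgeR). In both, set 3 was lowest and sets 1 and 2 overlapped. The call of Atp5k was lost without M3-2 and with the correction for GC content. With that correction 3 members passed, Cox6b1 among them, where 0.522% of all genes were called. With DESeq2 39 members passed, where 24.5% of all genes were called.

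Genes that act on the chain were read from the same fits. Of 30 regulators of mitochondrial transcription, RNA stability and biogenesis, none was higher and 2 were lower with all libraries (median log2 -0.07). These were Polg, the mitochondrial DNA polymerase, which fell by 0.66 ± 0.15, and Tfb1m, a methyltransferase of the mitochondrial ribosomal RNA, which fell by 0.97 ± 0.30 (SE; edgeR, adjusted p = 0.00995 and 0.0433). Polg passed in the 17 libraries (adjusted p = 0.00348) and Tfb1m did not (adjusted p = 0.079), both by edgeR. Of 43 assembly factors tested, Cox14 rose (0.67 ± 0.19) and Bcs1l and Tmem126b fell, by 1.04 ± 0.21 and 1.00 ± 0.21 (SE). Bcs1l inserts the Rieske protein into complex III, Tmem126b serves the assembly of complex I, and Cox14 that of complex IV. All 3 passed in the 17 libraries too, where Coa5 also fell (0.51 ± 0.12 SE; edgeR, adjusted p = 0.0117). Of 17 genes of the tricarboxylic acid cycle, Fh1 and Idh3a fell with all libraries (by 0.47 and 0.39 in log2), and neither passed in the 17 (edgeR, adjusted p = 0.051 and 0.055). Of 77 subunits of the mitochondrial ribosome, 3 fell with all libraries (Mrpl24, Mrpl30 and Mrpl42) and none rose. In the 17 libraries Mrpl42 fell and Mrpl43 rose, and with the correction for GC content Mrpl42 fell and Mrpl9, Mrpl13 and Mrpl43 rose. Of 6 mitochondrial tRNA genes with enough counts none passed. The mitochondrial ribosomal RNA mt-Rnr2 was higher by 0.98 ± 0.33 in log2 with 20 libraries (SE; edgeR, adjusted p = 0.058) and by 1.13 ± 0.36 with 17 (adjusted p = 0.0461). The libraries were depleted of rRNA, so its level in the tissue and the extent of the depletion cannot be told apart.

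Promoters of nuclear members were searched for the letters known as cores of the sites of NRF1 (GCGCA, any base, then GCGC) and of ETS factors such as GABP (CCGGAAG), on both strands, in windows from 250 bases before to 50 bases after the start. RefSeq windows (GRCm38.p6) were matched for 70 of the 87 members. The NRF1 letters were present for 17 of 70 members (24.3%) and for 7.17% of 17492 protein-coding genes, and the ETS letters for 16 (22.9%) and 12.9%. Over windows rather than genes, 24.0% of the members' and 4.60% of all 32851 windows held the NRF1 letters, and 21.3% and 8.86% the ETS letters. The patterns were counted separately, and Atp5h, Atp5k, Cox6a1 and Sdhd held both. Of the called genes, Sdha and Ndufa6 held the NRF1 letters and Ndufab1 held neither. The windows of Sdha (chr13:74350191-74350490, minus strand), of Cox8a (chr19:7217567-7217866, minus strand) and of its muscle form Cox8b (chr7:140900397-140900696, minus strand) are shown because they differ in these letters, which are in capitals.
Sdha: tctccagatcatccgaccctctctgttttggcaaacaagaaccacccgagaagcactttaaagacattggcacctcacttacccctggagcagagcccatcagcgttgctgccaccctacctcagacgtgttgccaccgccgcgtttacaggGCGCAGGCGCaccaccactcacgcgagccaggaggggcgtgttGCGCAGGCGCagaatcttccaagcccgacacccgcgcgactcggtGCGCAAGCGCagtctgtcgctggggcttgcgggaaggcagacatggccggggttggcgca
Cox8a: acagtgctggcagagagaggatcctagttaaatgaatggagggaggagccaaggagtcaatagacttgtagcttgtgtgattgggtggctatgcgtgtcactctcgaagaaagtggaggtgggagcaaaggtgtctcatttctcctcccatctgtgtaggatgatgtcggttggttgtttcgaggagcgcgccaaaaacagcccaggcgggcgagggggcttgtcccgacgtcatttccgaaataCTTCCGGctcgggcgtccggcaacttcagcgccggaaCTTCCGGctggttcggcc
Cox8b: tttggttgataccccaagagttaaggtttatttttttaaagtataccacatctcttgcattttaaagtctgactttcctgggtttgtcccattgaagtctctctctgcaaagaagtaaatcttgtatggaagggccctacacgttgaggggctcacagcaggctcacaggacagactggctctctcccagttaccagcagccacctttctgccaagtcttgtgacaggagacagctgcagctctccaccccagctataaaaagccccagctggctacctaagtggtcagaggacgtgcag
Sdha holds 3 stretches of the NRF1 letters, Cox8a 2 of the ETS letters on the opposite strand (CTTCCGG) and Cox8b none of either. These are matches of letters, and no binding was measured.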

How the data were processed

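Per the labels' protocols, 20 mouse tumour tissues gave RNA (Direct-zol kit) for stranded libraries depleted of rRNA. Trimmomatic 0.36, STAR (the version is given as 5.5.4b) and HTSeq were used with mm10, per the submitters' processing notes. The authors deposited whole-number read counts per gene, not normalized. Library totals ran from 20603620 to 36824370 counts. Not given in the sources used here were the annotation release, the strand setting and the handling of reads with several matches. Identifiers were matched to symbols and mm10 coordinates in GENCODE M21 (51633 matched, 47648 in the same version).

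Genes were filtered with filterByExpr (minimum count 10), scaled by TMM and tested with edgeR 4.0.16 (robust quasi-likelihood, R 4.3.3), with a block for the matched set taken from the titles, and Benjamini-Hochberg adjustment over all genes. Sets were compared among 12 metastases with the same tool. CPM were scaled by TMM, and a prior count of 2 entered their log2. GC content is that of the longest protein-coding transcript. The correction for GC content is an offset per library from a lowess curve (span 0.3) of its deviation from the median library. The curve was fitted on expressed nuclear protein-coding genes and held flat near the ends of their GC range. Shared stretches are exact 50-base matches in other genes' transcripts. Alternatives were DESeq2 1.42.0, limma 3.58.1 (voom), other scalings, no filter, no replicate block, summed or first metastases, tissue indices as covariates, and leaving out sets. After seeing the data, the alternatives without 3 libraries, without sets 4 and 6 and with the GC offset were added. The scripts were tested on simulated data. Count floors cover counting error only.

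The members and gene lists were chosen with earlier results of these data known. Genes named were all mitochondrial members, the isoform pairs and, per complex, the 3 nuclear members of smallest p and the one of highest mean count. Of the members named, Atp5g2, Atp5g3, Atp5h, Atp5k, Atp5l, Atp5o, Cox7c, Cox8c, Cyc1, Ndufa3, Ndufs4, Ndufs5, Ndufv1, Sdhd and Uqcr11 fall outside this rule and were chosen after their values were seen. Results of some genes are not reported here.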

Additional observations from a re-analysis of the deposited data

Results flagged for a closer look

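In the 6 primary tumours, 47 quantities were screened for a value far from the others (gap over range above Dixon's critical value), and 17 exceeded it, all in P4, where chance gives about 1 in 20. P4 had 1.75% of counts from mitochondrial protein genes (0.245 to 0.601% in the others) and a slope on GC content of -0.268 log2 per percentage point (-0.0434 to 0.0108). The share of Cox7b2 in its pair was 3.51% and 0 elsewhere. In log2 CPM, the nuclear members low in P4 were Sdhb (4.68), Cox6a1 (4.66), Atp5j2 (3.29), Cox7a1 (-3.95), Cox6b1 (5.53), Cox4i1 (3.50), Cox7a2 (5.67), Ndufb9 (5.29) and Cox8a (2.46). Those high in P4 were Cycs (5.15) and Uqcrb (6.25), and the mitochondrial mt-Nd1 (12.29), mt-Nd2 (10.14) and mt-Nd4 (9.97). Cycs, Uqcrb and the mitochondrial genes have GC contents of 35.6 to 42.2%, and the low members of 50.1 to 58.8%. These values share a library and are not independent.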

How the results depend on the processing

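With edgeR and the matched set as a block, 2 nuclear members were higher and 2 lower in metastases. The matched sets come from the sample titles, and with no replicate block the counts were again 2 and 2. Nuclear members higher numbered 1 with a scaling without the mitochondrial genome and 1 with the muscle index as a covariate, and 0 with no low-count filter, with metastases summed per set, with metastasis 1 of each set and without sets 4 and 6. Nuclear members lower numbered 4 with DESeq2, with limma voom and without the 3 libraries of steep GC slope, and 5 with the muscle index. Those lower numbered 1 with no filter (Ndufab1) and 1 with summed metastases (Cox6a2). They numbered 0 with metastasis 1, with the lung epithelium index and without sets 4 and 6. Mitochondrial members higher numbered 1 with DESeq2, with voom, without the 3 libraries and without sets 4 and 6, and 3 with the replicate block and the GC offset. Leaving out a set in turn gave 0 to 10 nuclear members higher, 1 to 3 lower, and 0 to 1 mitochondrial members in either direction. The share of all genes called, higher or lower, was 13.8% in the fit above, and 14.7% with the scaling without the mitochondrial genome, 27.7% with the muscle index, 7.58% with the lung index, 5.23% with no filter, 2.04% with summed metastases, 2.41% with metastasis 1, 9.84% without sets 4 and 6, 22.6% with DESeq2, 15.8% with voom, 16.9% without the 3 libraries, 18% with the GC offset and 5.45 to 16.6% on leaving out a set. The mean log2 ratio of the genomes ran from -0.04 to 0.72 on leaving out a set. The members that differed between sets (2) numbered 39 with DESeq2, 6 with no filter and 27 with the lung index. They numbered 1 without M3-2, 3 with the GC offset and 0 to 15 on leaving out a set. In that order, the share of all genes called (0.321%) was 24.5%, 0.407%, 11.6%, 0.24%, 0.522% and 0 to 12.2%.

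Directions turned for genes with small differences. With no replicate block the log2 difference was 0.050 for Sdhc, 0.032 for Sdhb, -0.16 for mt-Nd1, -0.15 for mt-Nd2, -0.29 for mt-Co1 and -0.23 for mt-Cytb. With the muscle index it was 0.030 for Sdhc, 2.48 for Cox8b, -0.056 for mt-Co1 and -0.037 for mt-Cytb. With the lung index it was -0.023 for Cox6a1, 0.17 for Cycs, -1.15 for Ndufa4l2 and 0.28 for Atp5b. With the GC offset Sdhc was at 0.0019. On leaving out a set, Sdhc ran from -0.19 to 0.12, Sdhb from -0.20 to 0.15, Cox6a1 from -0.040 to 0.25 and mt-Nd2 from -0.047 to 0.49. Of 665 values of 35 tested genes under 19 settings, 586 kept direction and side of the threshold, 31 lost a call, 27 gained one and 21 turned. The causes were not tested.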

Other observations

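Ndufs5, an accessory subunit of complex I, was at 0.268 CPM in P6, the library with the steepest fall with GC content after P4, M4-1 and M3-2 (slope -0.0434 log2 per percentage point), and at 3.38 and 2.48 CPM in the metastases M6-1 and M6-2. The other libraries without the steep slope lay between 1.78 and 7.97 CPM, and Ndufs5 shares 31.1% of its 50-base stretches with other genes. It was chosen after its values were seen, and no test was run.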
